A study of Homo sapiens with 6 samples.

Results

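The genes described here encode MYC and the proteins that share its dimerisation network: MYC, MAX, MXD1, MXD3, MXD4, MXI1, MNT, MGA and MLX. They were taken by symbol from the gene tables of 6 RNA-seq libraries, and all 9 were found among 23698 gene rows, each at 1 place. All 9 passed the filter on low counts, as did 13668 of all rows. The libraries came from MV4-11, an established human acute myeloid leukaemia line with the FLT3 internal tandem duplication. In 3 libraries the cells had been stably transduced with a lentiviral hairpin against PRMT5, an enzyme that dimethylates arginines symmetrically, and in the other 3 with a lentiviral scrambled hairpin. All cells grew in Iscove's medium with serum, and RNA was made into poly(A) libraries. Both groups are the same single line, and whether each library came from its own transduction or culture is not given in the sources used here.

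MYC is a basic helix-loop-helix leucine zipper factor that binds DNA only as a dimer with MAX, at sites called E-boxes, and activates genes of growth and ribosome assembly. The MXD proteins (MXD1, MXD3, MXD4 and MXI1) and MNT compete for MAX and for the same sites, and recruit the SIN3-histone deacetylase corepressor. MGA is a large repressor that also pairs with MAX, as part of a Polycomb complex, and MLX is a MAX-like protein that pairs with MondoA and with some MXD proteins. MYC sustains the growth of many acute myeloid leukaemias, and MXD1 is known to rise when myeloid cells mature.

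The palindrome CACGTG is the best known E-box. It was looked for in windows from 250 bases before to 50 bases after each RefSeq start site (GRCh38.p14), where 1 search covers both strands. Windows were found for 8 of the 9 members, all but MYC. Of all 35116 windows, 2548 held it (7.26%), against 3 of the 13 windows of the members, which were those of MXD4, MNT and MLX. The 250 bases before the start site are shown for these 3 and for MXD1, the member whose level varied most between libraries, with CACGTG in capitals and each strand read in the direction of the gene. MXD4 lies at chr4:2262110-2262359 on the minus strand, with the motif at bases 13 to 18 of the sequence shown. MNT lies at chr17:2401061-2401310 on the minus strand, with the motif at bases 58 to 63. MLX lies at chr17:42566850-42567099 on the plus strand, with the motif at bases 201 to 206. MXD1 lies at chr2:69914859-69915108 on the plus strand, and the letters CACGTG are not in its window. A match describes the letters and does not show a bound site.
MXD4: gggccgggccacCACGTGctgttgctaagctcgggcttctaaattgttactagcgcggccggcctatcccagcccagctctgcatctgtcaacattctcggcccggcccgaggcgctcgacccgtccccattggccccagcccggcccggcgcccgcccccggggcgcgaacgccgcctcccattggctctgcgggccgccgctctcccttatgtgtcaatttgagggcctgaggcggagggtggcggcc
MNT: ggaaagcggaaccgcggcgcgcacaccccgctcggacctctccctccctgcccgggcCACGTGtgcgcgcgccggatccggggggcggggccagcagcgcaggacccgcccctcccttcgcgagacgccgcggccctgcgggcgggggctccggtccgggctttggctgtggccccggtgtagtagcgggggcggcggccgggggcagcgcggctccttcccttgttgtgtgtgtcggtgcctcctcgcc
MLX: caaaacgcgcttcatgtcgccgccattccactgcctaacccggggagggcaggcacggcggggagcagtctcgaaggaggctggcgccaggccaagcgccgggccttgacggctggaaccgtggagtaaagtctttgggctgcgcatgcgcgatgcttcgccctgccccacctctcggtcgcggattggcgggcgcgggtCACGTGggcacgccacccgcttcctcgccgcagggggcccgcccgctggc
MXD1: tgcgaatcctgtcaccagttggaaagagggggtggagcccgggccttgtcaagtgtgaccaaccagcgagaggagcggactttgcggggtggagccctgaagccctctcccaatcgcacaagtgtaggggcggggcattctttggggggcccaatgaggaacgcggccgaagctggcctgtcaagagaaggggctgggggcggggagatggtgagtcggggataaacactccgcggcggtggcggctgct

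The libraries held 16408484 to 19077106 estimated counts, and the members 405 to 28559 counts per library. PRMT5, the targeted gene, had 103, 71.6 and 52.9 CPM (counts scaled to library size with TMM factors) in knockdown 1 to 3, against 133, 53.1 and 158 CPM in libraries labelled control 1 to 3. Its log2 difference, knockdown minus control, was −0.60 (SE 0.43, edgeR quasi-likelihood adjusted p = 0.926). The PRMT5 level of the library labelled scrambled control 2 (in short, the library labelled control 2) was that of the knockdown group and goes against its label, so results are also given without it. The PRMT5 difference then was −0.94, and with any other single library left out it was −0.88 (knockdown 1) to −0.29 (control 3). The growth to −0.94 follows from the choice, because the library labelled control 2 was singled out by its low PRMT5 level. All 11 genes fixed as markers of the line were detected, the lowest being CSF1R at 2.40 CPM. Their levels were not uniform over the 6 libraries. MPO ran from 13.8 to 502 CPM, LYZ from 35.3 to 1267 CPM, ITGAM from 16.4 to 115 CPM and MEIS1 from 18.3 to 102 CPM. CD33 ran only from 43.9 to 53.7 CPM and SPI1 from 121 to 157 CPM. CD3E, CD2, HBB, EPCAM and COL1A2 were at 0 in every library. In the library labelled control 2 the 3 fibroblast markers summed to 4.99 CPM, all of it from COL1A1, and in the other 5 to 0.466 CPM or less. The 3 epithelial markers summed to 52.04 CPM there, all of it from keratin genes, and to 15.1 to 27.9 CPM elsewhere. T cell and B cell markers summed to at most 0.057 and 1.59 CPM. The part of these genes in the results was not tested.

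No member differed between the groups by the test. With edgeR's quasi-likelihood test over all genes, 0 of the 9 members passed an adjusted p of 0.05, as did 0 of the 13668 genes (0%). DESeq2 and limma-voom also called 0 genes. At an unadjusted p under 0.05 there were 0 members, and 242 genes (1.77%) with edgeR, 461 with DESeq2 and 117 with limma-voom. The 3 knockdown libraries did not lie wholly above or below the 3 controls for any member, while they did for 6.24% of all tested genes. In this fit 6 members had a positive log2 difference (5 under RLE scaling) and 3 a negative one, against 49.9% positive over all genes, and the members' median was 0.036, beside −0.00069 over all genes. Adjusted p-values of the members were 0.926 to 0.999. In RNA from whole cultures, a change in the share of cells that express a gene and a change in the amount per cell cannot be told apart.

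**Figure D1:**
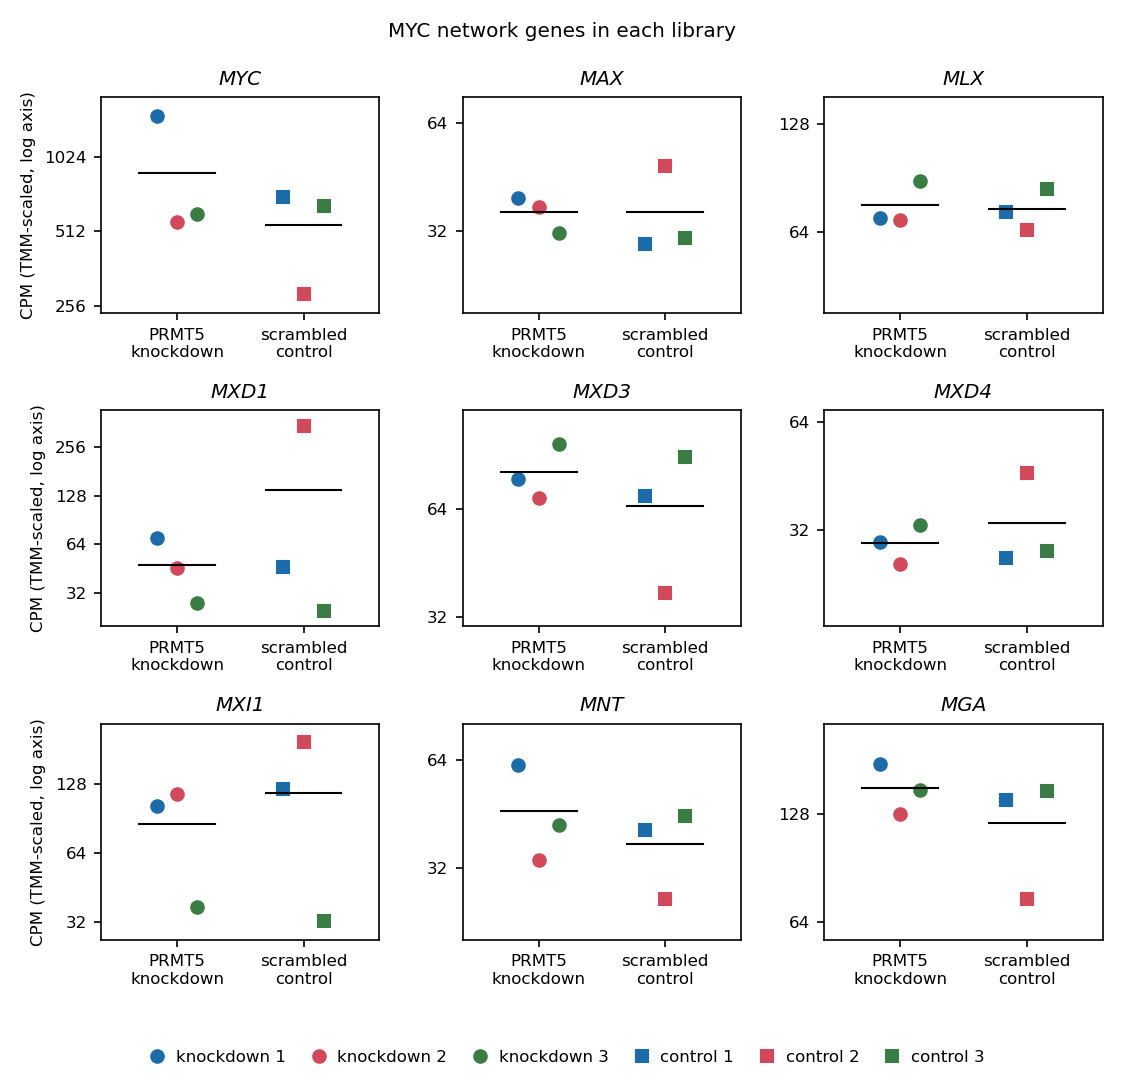
TMM-scaled CPM of the 9 genes (log axis, a separate range in each panel) in the PRMT5 knockdown libraries (circles, left) and the scrambled control libraries (squares, right), coloured by replicate number, with a line at each group's mean. MYC peaked at 1490 CPM in knockdown 1, MXD1 reached 344 CPM in the library labelled control 2, and MXI1 was low in both libraries numbered 3.

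MYC itself had 1490, 556 and 600 CPM in knockdown 1 to 3, against 702, 285 and 646 CPM in libraries labelled control 1 to 3. Knockdown 1 was the highest and the library labelled control 2 the lowest, while the other 4 lay between 556 and 702 CPM, so the groups overlapped. The means were 882 ± 527 CPM in knockdown and 544 ± 226 CPM in control libraries (SD, n = 3 each). On the log2 scale the difference was 0.70 (SE 0.49, 95% interval −0.45 to 1.84). It was 0.085 when knockdown 1 was left out and 0.39 when the library labelled control 2 was.

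Of its relatives in the tables, MYCN was at 0 counts in all 6 libraries. MYCL1, the MYCL gene, was at 6.81 ± 1.67 CPM in knockdown and 7.58 ± 0.477 CPM in control libraries (SD, n = 3 each). Its log2 difference was −0.15 (SE 0.30).

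MAX, a shared partner of MYC, the MXD proteins, MNT and MGA, had 39.5, 37.5 and 31.7 CPM in knockdown 1 to 3, against 29.4, 48.5 and 30.5 CPM in libraries labelled control 1 to 3. The range was narrow, 1.65-fold from lowest to highest, and both ends of it lay among the controls. Between the groups its log2 difference was 0.0028 (SE 0.26, 95% interval −0.61 to 0.62). Its sign was the opposite under RLE scaling and in DESeq2, so MAX has no direction here.

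MLX had 69.7, 68.9 and 88.7 CPM in knockdown 1 to 3, against 72.7, 64.7 and 84.2 CPM in libraries labelled control 1 to 3. It was the steadiest member, 1.37-fold from lowest to highest, and was highest in the libraries numbered 3 of both groups. Its log2 difference was 0.036 (SE 0.21, 95% interval −0.46 to 0.54), and −0.048 without the library labelled control 2. MLXIP, the gene of the MLX partner MondoA, had 65.2 ± 6.08 CPM in knockdown and 67.3 ± 8.14 CPM in control libraries (SD, n = 3 each), a log2 difference of −0.047 (SE 0.20) that was 0.053 with the library labelled control 2 left out.

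MXD1 varied most of the antagonists. It had 70.0, 45.7 and 27.7 CPM in knockdown 1 to 3, against 46.0, 344 and 24.8 CPM in libraries labelled control 1 to 3. The library labelled control 2 stood far above the other 5, and the libraries numbered 3 were the lowest of each group. The log2 difference was −1.53 (SE 0.92, 95% interval −3.69 to 0.62) in edgeR, −0.69 in limma-voom and −0.63 with the replicate number as a block. Without the library labelled control 2 its direction turned, to 0.43.

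MXI1, an MXD family repressor also called MXD2, had 103, 116 and 37.3 CPM in knockdown 1 to 3, against 122, 196 and 32.2 CPM in libraries labelled control 1 to 3. The libraries numbered 3 were low in both groups, and those numbered 1 and 2 were high in both, so its levels followed the replicate number more than the group. The fitted log2 difference was −0.45 (SE 0.65, 95% interval −1.97 to 1.08), and 0.15 without the library labelled control 2.

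MXD3, the MXD gene known to be expressed in dividing cells, had 77.1, 68.7 and 96.7 CPM in knockdown 1 to 3, against 69.4, 37.3 and 88.9 CPM in libraries labelled control 1 to 3. Here the library labelled control 2 was the lowest, the other way round from MXD1 and MXI1. The log2 difference was 0.31 (SE 0.33), and 0.032 without that library.

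MXD4 had 29.7, 25.8 and 33.1 CPM in knockdown 1 to 3, against 26.7, 46.1 and 27.95 CPM in libraries labelled control 1 to 3. Of the 6, only the library labelled control 2 was above 33.1 CPM. MXD4 had a log2 difference of −0.19 (SE 0.28), and 0.11 without it.

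MNT, the antagonist that is also present in growing cells of many types, had 62.0, 33.6 and 42.1 CPM in knockdown 1 to 3, against 40.7, 26.2 and 44.5 CPM in libraries labelled control 1 to 3. As for MYC, knockdown 1 was the highest and the library labelled control 2 the lowest. The log2 difference was 0.31 (SE 0.31), 0.025 with knockdown 1 left out and 0.11 with the library labelled control 2 left out.

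MGA had 176, 128 and 149 CPM in knockdown 1 to 3, against 140, 74.0 and 148 CPM in libraries labelled control 1 to 3. It had the same highest and lowest library as MYC and MNT, and the other 4 lay between 128 and 149 CPM. For MGA the log2 difference was 0.32 (SE 0.30), 0.20 with knockdown 1 left out and 0.071 with the library labelled control 2 left out.

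The library labelled control 2 was at an end of the range for all 9 members, highest for MAX, MXD1, MXD4 and MXI1 and lowest for MYC, MXD3, MNT, MGA and MLX. It was at an end for 71.1% of all tested genes, so this is not particular to the network. Knockdown 1 was at an end for 3 members, as the highest for MYC, MNT and MGA, and for 36.1% of all tested genes.

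Levels of different genes were compared as CPM per kb of exon, from GENCODE exon lengths. MYC had the highest level of the network in every library, 95.03 to 497 CPM per kb with a median of 208, and no other member's range reached it. MLX, MXI1 and MXD3 followed with medians of 27.5, 27.1 and 22.3 CPM per kb, and their ranges overlapped. MGA, MAX, MNT, MXD1 and MXD4 had medians of 9.48, 8.42, 8.29, 8.17 and 7.11 CPM per kb, each overlapping the next in range. They were not apart from the genes above them either. MXD3 went down to 11.3 and MGA up to 11.6 CPM per kb, and MXD1 reached 61.3 CPM per kb in the library labelled control 2. With median transcript length in place of all exons MYC was still the highest, but MLX moved from rank 2 to rank 5, MAX from rank 6 to rank 4 and MXI1 from rank 3 to rank 2, so the order below MYC depends on which transcripts are assumed.

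Set against the summed level of MXD1, MXD3, MXD4, MXI1 and MNT, MYC was 6.12, 2.62 and 3.33 times as high per kb in knockdown 1 to 3. It was 3.16, 0.691 and 3.90 times as high in the libraries labelled control 1 to 3. MYC thus exceeded the sum of its 5 antagonists in 5 libraries, and the antagonists exceeded MYC in the library labelled control 2. The mean ratio was 4.02 ± 1.85 in the knockdown and 2.58 ± 1.68 in the control libraries (SD, n = 3 each), a gap of 1.44. With the library labelled control 2 left out the control mean was 3.53 and the gap 0.494, and with knockdown 1 left out the knockdown mean was 2.97 and the gap 0.389.

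A balance was also taken as the log2 CPM of MYC minus the mean log2 CPM of the 5 antagonists. Gene length shifts its values alike in every library, so differences between libraries, but not the values themselves, are free of length. The balance was 4.55, 3.47 and 3.81 in knockdown 1 to 3, against 3.72, 1.85 and 4.05 in the libraries labelled control 1 to 3. Knockdown 1 had the highest balance and the library labelled control 2 the lowest, and the other 4 lay between 3.47 and 4.05 with the groups mixed. The means were 3.94 ± 0.554 in the knockdown and 3.21 ± 1.19 in the control libraries (SD, n = 3 each), a difference of 0.74 that was smaller than the SD of the controls. A two-sided exact permutation test gave p = 0.5, where 3 against 3 libraries cannot go below 0.1. Leaving out the library labelled control 2 brought the difference to 0.059. The MYC term differed by 0.65 between the groups and the mean of the antagonists by −0.089.

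**Figure D2:**
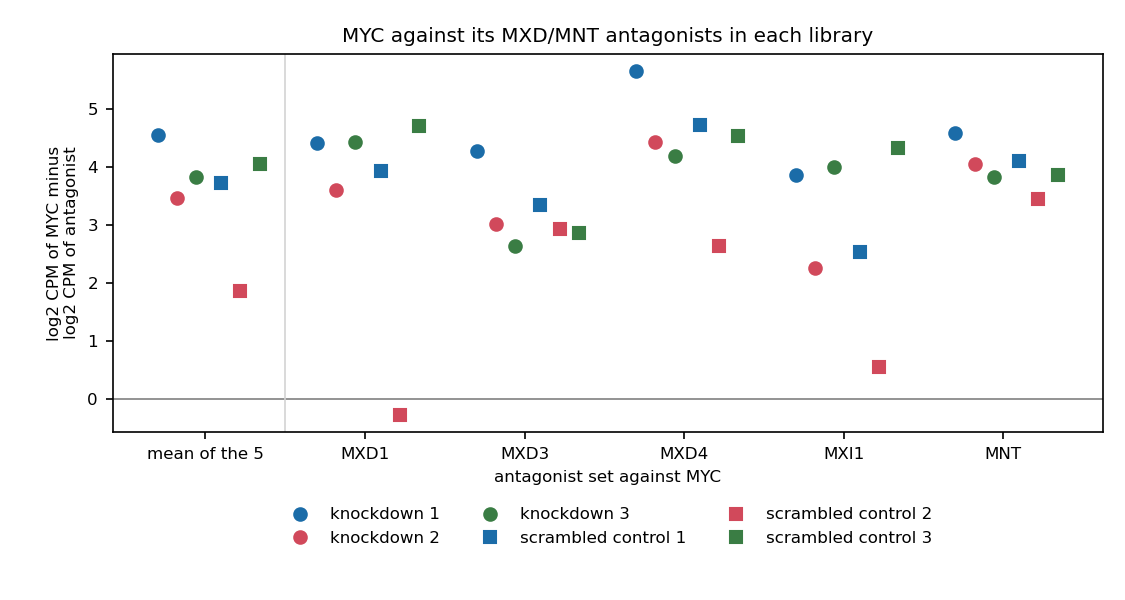
Balance of MYC against its antagonists in each library, as log2 CPM of MYC minus that of the antagonist on the y axis, for the mean of the 5 antagonists (left of the line) and for each singly. Circles are PRMT5 knockdown and squares scrambled control libraries, coloured by replicate number. The library labelled control 2 is at 1.85 for the mean and below 0 for MXD1, at −0.27. Values are not corrected for gene length, so 0 does not mark equal transcript levels.

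The antagonists did not contribute alike. MYC minus MXD1 was 4.41, 3.60 and 4.43 in knockdown 1 to 3, against 3.93, −0.27 and 4.70 in the libraries labelled control 1 to 3. Only in the library labelled control 2 was the MXD1 count above the MYC count. Per kb of exon MYC was the higher there, at 95.03 against 61.3 CPM per kb. MYC minus MXI1 was 3.85, 2.26 and 4.002 in knockdown 1 to 3, against 2.52, 0.54 and 4.32 in the controls, lowest in the libraries numbered 2 of both groups. MYC minus MNT had the narrowest range of the 5, at 4.58, 4.04 and 3.83 in knockdown 1 to 3, against 4.10, 3.44 and 3.86 in the controls. The group differences were 1.36 for MXD1, 0.26 for MXD3, 0.79 for MXD4, 0.91 for MXI1 and 0.35 for MNT. Leaving out the library labelled control 2 gave −0.16 for MXD1, 0.21 for MXD3, 0.13 for MXD4, −0.052 for MXI1 and 0.17 for MNT, and leaving out knockdown 1 turned MXD3 to −0.22. Exact permutation p-values were 0.5 to 0.8, and each was 0.8 after Benjamini-Hochberg adjustment over the 5 antagonists.

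The make-up of the antagonist pool also differed between libraries. By CPM per kb, MXD1 made up 15.4%, 11.5% and 8.20% of the 5 in knockdown 1 to 3, against 11.1%, 44.6% and 8.01% in the libraries labelled control 1 to 3. MXD3 made up 28.9%, 29.5% and 48.9% in knockdown 1 to 3, against 28.5%, 8.24% and 48.9% in the controls. In the libraries numbered 3 MXD3 was thus the largest part in both groups, and in the library labelled control 2 MXD1 was. With median transcript length the MXD1 share of that library was 31.4% and that of MXI1, 45.5%, was the largest there.

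**Figure D3:**
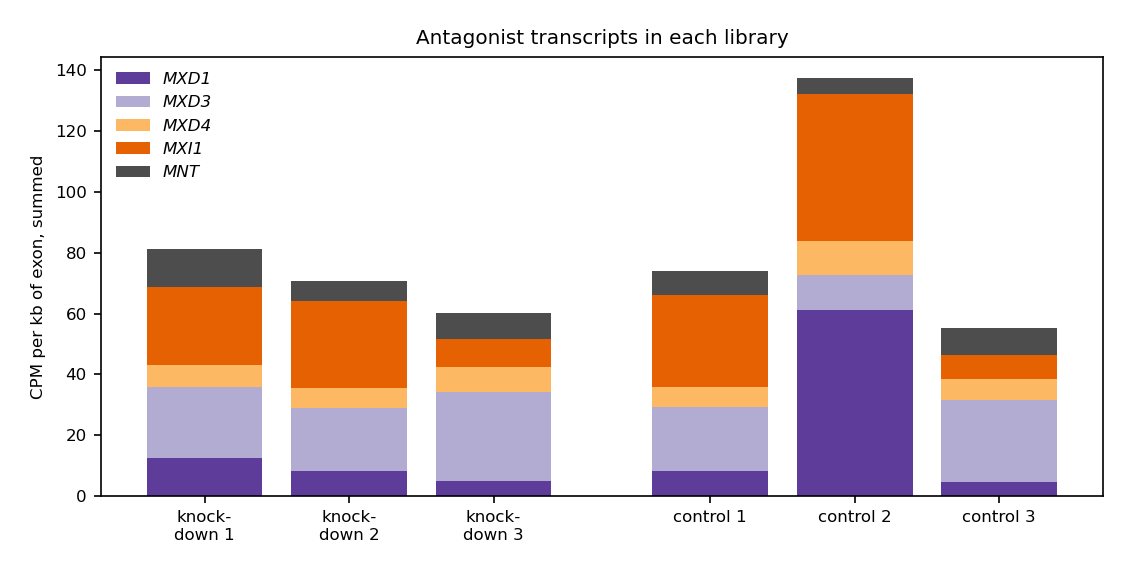
CPM per kb of exon of MXD1, MXD3, MXD4, MXI1 and MNT, stacked, in the 3 PRMT5 knockdown libraries (left) and the 3 scrambled control libraries (right). MXD1 takes 44.6% of the bar of the library labelled control 2 and at most 15.4% of any other bar.

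Same-numbered libraries had correlated deviations from their group means (r = 0.127, 0.394 and 0.566 for numbers 1 to 3), so differences were also taken within numbers. No label states a pairing, and knockdown 2 with control 1, of unlike number, reached 0.164, above number 1. MYC was higher in the knockdown by 1.09 in pair 1 and by 0.96 in pair 2 on the log2 scale, and its difference was −0.11 in pair 3. MXD1 had 0.60, −2.91 and 0.15 in pairs 1 to 3. MXD3 and MGA were the only members with a positive difference in all 3 pairs, at 0.15, 0.88 and 0.12 for MXD3 and at 0.33, 0.78 and 0.0097 for MGA; 14.6% of all tested genes were positive in all 3. None of the members was negative in all 3, while 14.1% of all genes were. The balance differed by 0.83, 1.61 and −0.24 in pairs 1 to 3.

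PRMT5 itself differed by −0.36, 0.43 and −1.58 in log2 CPM in pairs 1 to 3, so in pair 2 it was higher in the knockdown. Each pair sets 1 library against 1, and a link between the PRMT5 difference and the members was not tested. In pair 3 the 9 members differed by at most 0.24 (MXD4). Their median absolute difference there was 0.11 in log2 CPM, beside 0.096 over all tested genes. In pair 2 the members' median absolute difference was 0.78, beside 0.60 over all genes, and in pair 1 it was 0.33, beside 0.29.

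**Figure D4:**
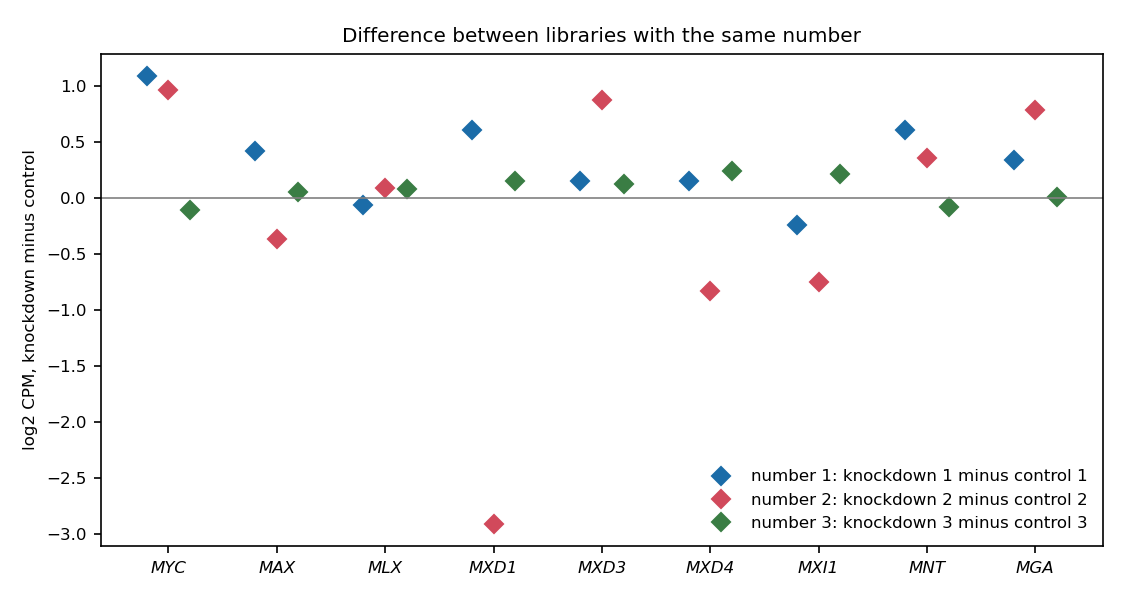
Difference in log2 CPM, knockdown minus control, between libraries with the same number for each of the 9 genes (y axis), coloured by number. Number 3 stays within 0.24 of 0 for all 9 genes, and MXD1 is at −2.91 for number 2.

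Lists of partners and targets were measured in the same fit, and 0 of their members passed. Among 30 textbook MYC targets 26 had a positive and 4 a negative log2 difference, with a median of 0.37, beside −0.00069 over all genes. Centred on each gene's mean, the list's median log2 CPM was 0.43, −0.030 and 0.36 in knockdown 1 to 3, against 0.086, −1.06 and 0.39 in the libraries labelled control 1 to 3. The list was lowest in the library labelled control 2, where MYC was lowest and which was at an end of the range for 71.1% of all tested genes. In knockdown 1, with MYC at 1490 CPM, the list was close to its value in control 3, with MYC at 646 CPM. A link between the level of MYC and the list was not tested. Within pairs 1 to 3 the list's median difference was 0.33, 1.12 and −0.063. Without the library labelled control 2 the list's median difference was 0.078. The 4 targets with the smallest p went both ways. PTMA, which encodes prothymosin alpha, and LDHA, lactate dehydrogenase, had log2 differences of −0.62 (SE 0.27) and −0.41 (SE 0.25). EIF4E, the cap-binding factor, and BCAT1, a branched-chain aminotransferase, had 0.42 (SE 0.26) and 0.48 (SE 0.30). Leaving out the library labelled control 2 gave −0.42, −0.50, 0.26 and 0.30 for PTMA, LDHA, EIF4E and BCAT1.

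Targets of the MLX-MondoA dimer had 1 positive and 6 negative differences among 7 tested genes, with a median of −0.54. That median was −0.30 in limma-voom, −0.31 with the replicate number as a block, −0.92 and −0.29 with knockdown 1 or knockdown 3 left out, −0.90 with control 3 left out and 0.10 with the library labelled control 2 left out. TXNIP, the thioredoxin-binding arrestin that is their best known target, had 732, 700 and 281 CPM in knockdown 1 to 3, against 879, 6027 and 248 CPM in libraries labelled control 1 to 3. For TXNIP the libraries numbered 3 were low and the library labelled control 2 was high, as for MXD1 and MXI1. Its log2 difference was −2.06 (SE 1.04), and 0.022 without the library labelled control 2. ARRDC3 was lowest in knockdown 2, at 3.28 CPM, and highest in the library labelled control 2, at 33.7 CPM. It had −1.40 (SE 0.59), and −0.67 without that library, where HK2 had −0.43 and 0.066. MLX and MLXIP varied 1.37-fold and 1.29-fold, and a link to these targets was not tested. PFKFB3, a regulator of glycolysis, was the positive one, at 93.6 ± 16.4 CPM in knockdown and 57.6 ± 13.02 CPM in control libraries (SD, n = 3 each; edgeR adjusted p = 0.926). Its log2 difference was 0.70, and 0.53 with the library labelled control 2 left out.

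The SIN3-histone deacetylase list had 6 positive and 9 negative differences among 15 genes (median −0.087, and −0.034 without the library labelled control 2). Its subunits ING2, SAP30 and ING1 had the smallest p, with log2 differences of −1.14, −0.65 and −0.94, and each was highest in the library labelled control 2, at 32.5, 87.9 and 77.5 CPM. Leaving that library out gave −0.29, −0.17 and −0.066. MYC coactivators had 9 positive and 5 negative among 14 (median 0.090, and −0.0052 without that library), with CDK9, the elongation kinase, at −0.58 and the acetyltransferase gene KAT2A at −0.52, which became −0.20 and −0.062 when it was left out. Genes of MYC protein turnover had 7 positive and 10 negative among 17 (median −0.019). In that list the deubiquitinase genes USP36 and USP28 had 0.47 and −0.70, and FBXW7, the ubiquitin ligase subunit that recognises MYC, had −0.47. Leaving out the library labelled control 2 gave 0.27, −0.16 and −0.097. The Polycomb partners of MGA had 7 positive and 7 negative among 14 (median 0.0067). Of the extended network, 5 of 7 genes were tested, 2 positive and 3 negative (median −0.047), MYCBP2 being at 0.36, and at 0.27 with the library labelled control 2 left out.

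**Figure D5:**
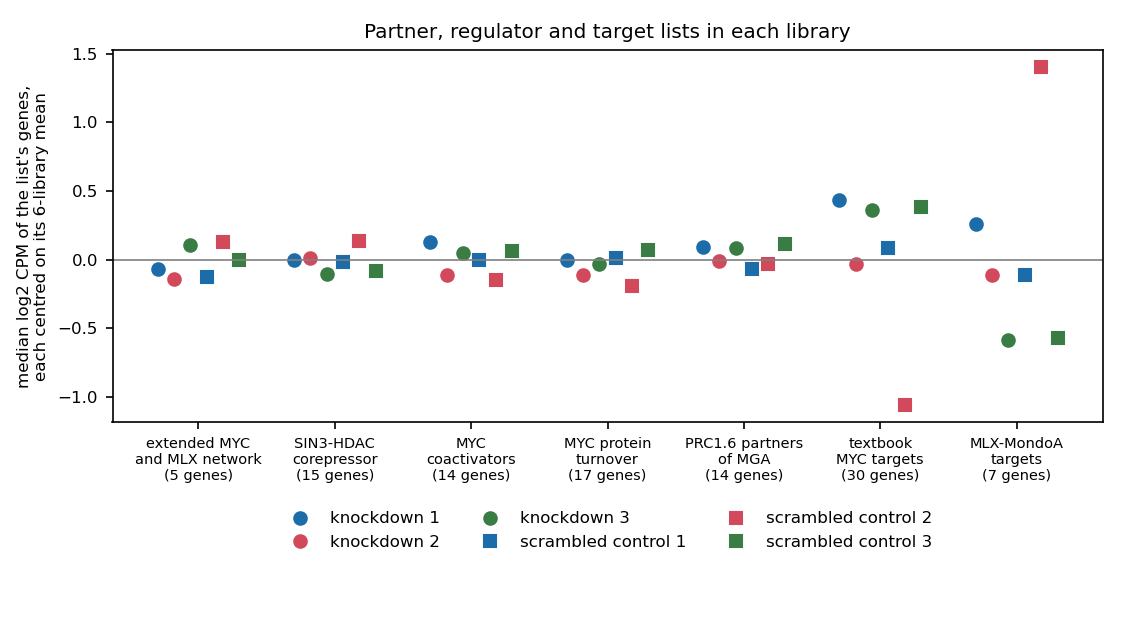
Median log2 CPM of each list's tested genes in each library (y axis), each gene centred on its mean over the 6 libraries; circles are PRMT5 knockdown and squares scrambled control libraries, coloured by replicate number. The 30 textbook MYC targets are at −1.06 and the 7 MLX-MondoA targets at 1.40 in the library labelled control 2.

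Likeness of pattern was measured as the root mean square difference in log2 CPM over the 6 libraries, after centring each gene, among the 11038 genes averaging 5 CPM or more. The 5 genes nearest to MYC were LOC100128881 at 0.094, CNDP2 (a dipeptidase) at 0.12, MFNG (a Notch glycosyltransferase) at 0.15, FERMT3 (kindlin-3) at 0.15 and RABEPK at 0.17. MYC's own root mean square deviation was 0.70. CNDP2 for example had 185, 63.3 and 78.7 CPM in knockdown 1 to 3, against 74.1, 29.7 and 76.1 CPM in libraries labelled control 1 to 3, high and low in the same libraries as MYC. Nearest to MXD1 were TNFSF9 (a TNF family ligand) at 0.097, DUSP1 (a MAP kinase phosphatase) at 0.16 and NFIL3 (a bZIP factor) at 0.17. NFIL3 had 53.6, 36.1 and 17.7 CPM in knockdown 1 to 3, against 44.1, 257 and 18.8 CPM in the controls. Nearest to MXI1 were S1PR5 (a sphingosine-phosphate receptor) at 0.14, LOC100505687 at 0.17 and TOX2 (an HMG-box factor) at 0.17.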

How the data were processed

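Poly(A) RNA-seq was made from 3 PRMT5 knockdown and 3 scrambled control libraries of MV4-11 cells. Each library has 1 table of estimated counts per gene as deposited, with no scaling. CASAVA 1.9, TopHat2 (version 2), edgeR and the build hg19 stand in the submitters' processing notes, without a stated role. How reads were counted, against which annotation and whether by strand is not given in the sources used here, so overlapping and antisense genes could share reads. For the count models the values were rounded to whole numbers. Library totals were 16408484 to 19077106, and counting error is small at the members' counts; it does not cover amplification.

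Genes kept by filterByExpr (minimum count 10) went into edgeR's quasi-likelihood test (edgeR 4.0.16, R 4.3.3, TMM scaling, two-sided, group as the only term), with Benjamini-Hochberg adjustment over 13668 genes and a threshold of 0.05. Log2 CPM used a prior count of 2. The intervals come from that fit. The p-values measure only the spread between these libraries, which may be technical. Exon lengths came from coding transcripts of GENCODE release 29 (GRCh38), by symbol. The script was tested on simulated data in which no library was set apart from the others. That test checks the computation and does not measure the power in these data.

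Same-numbered libraries had correlated deviations from their group means (r = 0.127, 0.394 and 0.566 across genes, each above 0.1) and are called pairs. No label states this pairing, and knockdown 2 with control 1 reached 0.164. Members, lists and the named-gene rule were chosen with earlier results of these data known. That rule names all 9 members, PRMT5, MYCN, MYCL1 and MLXIP, up to 4 tested genes per list with the smallest p, and the genes nearest in pattern to MYC, MXI1 and MXD1. Leaving out each library for the single antagonists, the ratio per kb and genes that are no members was added after seeing the data. Cell type markers came from a fixed list, of which 1 set is not reported here.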

Additional observations from a re-analysis of the deposited data

How the results depend on the processing

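No setting called a gene: the count was 0 under all 16 alternatives, with the replicate number as a block among them (replicate block, 0 genes; smallest adjusted p = 0.709 in edgeR). The block changed no call. The smallest adjusted p of any setting was 0.524, in edgeR with control 3 left out. In that fit 1307 of 13936 genes had an unadjusted p under 0.05, and the smallest unadjusted p of a member was 0.025. The balance of MYC kept its positive sign under 19 alternatives, but some of these could hardly move it. Scaling cancels between genes of 1 library, and the block leaves a difference of balanced groups unchanged. Under each scaling method, each filter and the block it stayed at 0.74. From the fitted differences of DESeq2 and limma-voom it was 1.01 and 0.73. With the antagonists summed it was 0.94 by CPM and 0.88 by CPM per kb, and with MGA added as an antagonist 0.66. The balance was 0.30 without both libraries numbered 2, and 0.059 to 1.16 with 1 library left out at a time. MYC, MXD3, MNT and MGA kept their sign in every setting; leaving out 1 library, MYC had 0.085 to 0.94, MXD3 0.032 to 0.60, MNT 0.025 to 0.49 and MGA 0.071 to 0.50. The others did not: MAX had −0.12 to 0.27, MXD1 −2.03 to 0.43, MXD4 −0.32 to 0.11, MXI1 −0.89 to 0.15 and MLX −0.095 to 0.14. MAX had −0.0058 under RLE scaling and −0.0056 in DESeq2. The median of the MYC protein turnover list was −0.16 without knockdown 3. Without both libraries numbered 2, MXD1 had 0.46 and MXD4 0.20. The cause of these turns was not tested, apart from the missing libraries themselves. With 3 libraries a group and a median SE of 0.33 over all genes, differences of the size seen for most members could not be told from 0.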
